A study of Mus musculus with 9 samples.

Results

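Small secreted or membrane-bound attractants of leukocytes, the CXC chemokines Cxcl1, Cxcl2, Cxcl3, Cxcl5, Cxcl9, Cxcl10, Cxcl12, Cxcl14 and Cxcl16 and the CX3C chemokine Cx3cl1 (fractalkine), were followed in mouse synovial fibroblasts (SFs). They were selected by gene symbol, with no threshold on their values but with earlier results of these data known. They make up 10 of the 49548 genes in the deposited tables. The gene lists read below were also chosen with those results known, so counts set beside shares of all genes are descriptions and not tests. Chemokines of the CXC family carry a pair of cysteines separated by a single residue, and those with a glutamate-leucine-arginine stretch before that pair, such as Cxcl1, Cxcl2, Cxcl3 and Cxcl5, draw neutrophils through the receptor Cxcr2. Cxcl9 and Cxcl10 are induced by interferon and act on T cells through Cxcr3, Cxcl12 is a constitutive product of stromal cells that binds Cxcr4, and Cxcl16 and Cx3cl1 are made as membrane-bound proteins that proteases can release. In the inflamed joint SFs are a known source of chemokines, and TNF switches on many chemokine genes through the transcription factor NF-kB.

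The RNA came from cultured SFs from the ankles of CBA C57BL/6J mice aged 8 weeks, from which CD45+ cells had been depleted at the first passage. The study compared 3 groups of 3 libraries each, namely WT SFs, SFs of mice that carry a human TNF transgene (hTNFtg) and develop arthritis, and hTNFtg SFs treated for 48 hours with 1 µg/mL infliximab, an antibody that binds human TNF. For the WT and untreated hTNFtg SFs the sample labels give no treatment, whereas the methods describe a vehicle. The transgene is human and has no row in a table of mouse genes, so its level was not measured here. Each library was sequenced near the 3′ ends of the transcripts, so that reads do not accumulate with gene length, and levels of different genes are compared below as normalized counts per gene on that scale. The methods call the 3 libraries of a group biological replicates, and the P values measure the spread between these libraries.

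The libraries held an estimated 4520461 to 6525945 reads in WT, 3829135 to 5662703 with infliximab and up to 9014556 in hTNFtg, but only 613344 in hTNFtg replicate 1. There, 1 read was worth 6.23 normalized counts and 3 reads 18.7, against 1.60 to 3.31 for 3 reads in the other 8 libraries, limits that cover counting error only. The 11 fibroblast markers summed to between 31825 and 44874 normalized counts in every library, most of it from Col1a1 (12251 to 23868) and Col1a2 (7863 to 13636). In hTNFtg versus WT 1 of the 11 was raised by the rule of P and fold given below, beside 3.35% of all genes tested, and 1 was lowered, beside 3.04%. Pdpn was raised, from 852 to 982 in WT to 1987 to 5582 in hTNFtg, and Lum was lowered, from 284 to 1158 to 193 to 230. The 10 macrophage markers summed to 193 to 661 in WT, 3112 to 6426 in hTNFtg and 2015 to 4112 with infliximab, and none was at 0 throughout a group. Lyz2 alone was at 43 to 277, 2284 to 5356 and 1277 to 2672, the largest single part in both hTNFtg groups. Of the 10, 8 were raised in hTNFtg versus WT, beside 3.35% of all genes tested. Csf1r (0.93 on the log2 scale) and Fcgr1 (0.07) were not. Ptprc, which encodes CD45, was among the 8, at 0, 3 and 0 in WT, 31, 9 and 12 in hTNFtg and 28, 8 and 22 with infliximab. Of the defining markers of other cells, Ly6g and S100a9 (neutrophils), Cd3e and Cd8a (T cells), Tie1 (endothelium) and Krt1 (keratinocytes) were listed at 0 in all 9 libraries, and the sums of the T cell and keratinocyte lists did not exceed 17 and 49. The 8 neutrophil markers summed to 577 to 1066, most of it from Elane (519 to 1024), and the 7 endothelial markers to 282 to 300 in WT, 106 to 242 in hTNFtg and 180 to 238 with infliximab, most of it from Egfl7 (280 to 295, 106 to 236 and 178 to 236), while none of the other 6 exceeded 6 in any library. In bulk RNA such as this, a change in the number of cells of a type and a change in RNA per cell cannot be told apart.

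Cxcl1, Cxcl2, Cxcl3 and Cxcl5 lie on chromosome 5 of mm10 within a cluster of related ligands, and the stretches before the starts of Cxcl1, Cxcl2 and Cxcl3 are shown because they share short runs of letters. Cxcl10, which lies with Cxcl9 in a second cluster on the same chromosome, and Cxcl14 on chromosome 13, the member with the smallest adjusted p, are shown for contrast. Each is the 250 bases before the gene's start in RefSeq (GRCm38.p6), 5′ to 3′ on the gene's strand, with capitals for every match to one of the motifs searched on both strands. These were the NF-kB consensus of 10 letters, the TATA box in the form TATAAA, the AP-1 site TGANTCA, the STAT site in the palindromic form TTCNNNGAA, and an interferon response element made of a pair of TTTC runs 2 bases apart. The 2 runs of at least 8 letters that the windows of Cxcl1, Cxcl2 and Cxcl3 share, GGGAATTTCCC and ATAAAAGG, were added after the sequences had been seen, and the first of them holds overlapping matches to the NF-kB consensus.
Cxcl1 (chr5:90890995-90891244, plus strand): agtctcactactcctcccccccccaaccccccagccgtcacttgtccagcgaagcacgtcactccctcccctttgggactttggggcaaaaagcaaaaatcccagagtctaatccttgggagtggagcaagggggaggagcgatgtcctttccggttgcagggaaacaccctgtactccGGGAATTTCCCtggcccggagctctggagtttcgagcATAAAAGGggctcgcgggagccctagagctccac
Cxcl2 (chr5:90903649-90903898, plus strand): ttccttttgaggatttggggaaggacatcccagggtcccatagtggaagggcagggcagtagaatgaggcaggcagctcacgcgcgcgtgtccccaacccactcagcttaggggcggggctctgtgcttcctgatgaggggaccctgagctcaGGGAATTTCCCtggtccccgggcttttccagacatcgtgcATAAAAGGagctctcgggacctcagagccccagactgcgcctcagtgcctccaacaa
Cxcl3 (chr5:90785851-90786100, plus strand): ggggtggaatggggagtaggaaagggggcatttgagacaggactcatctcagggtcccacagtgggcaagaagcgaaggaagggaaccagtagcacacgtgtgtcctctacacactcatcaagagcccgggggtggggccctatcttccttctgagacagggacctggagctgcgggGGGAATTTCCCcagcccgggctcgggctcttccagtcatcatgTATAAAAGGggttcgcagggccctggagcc
Cxcl10 (chr5:92348890-92349139, minus strand): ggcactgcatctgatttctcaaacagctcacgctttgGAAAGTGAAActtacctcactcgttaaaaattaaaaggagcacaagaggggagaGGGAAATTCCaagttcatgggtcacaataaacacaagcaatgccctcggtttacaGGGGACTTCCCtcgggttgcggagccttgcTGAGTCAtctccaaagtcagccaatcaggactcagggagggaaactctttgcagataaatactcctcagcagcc
Cxcl14 (chr13:56296552-56296801, minus strand): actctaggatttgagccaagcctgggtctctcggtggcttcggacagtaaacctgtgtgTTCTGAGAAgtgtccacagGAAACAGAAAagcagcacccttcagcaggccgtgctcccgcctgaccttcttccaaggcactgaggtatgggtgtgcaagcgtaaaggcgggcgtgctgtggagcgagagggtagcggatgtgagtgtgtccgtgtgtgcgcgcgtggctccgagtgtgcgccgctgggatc

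GGGAATTTCCC began 71, 97 and 73 bases before the start of Cxcl1, Cxcl2 and Cxcl3, and ATAAAAGG followed it 34, 57 and 29 bases before the start. Of 32851 promoter windows of the same length in the table, 14 (0.0426%) hold GGGAATTTCCC and 1.54% hold ATAAAAGG. The NF-kB consensus is found in 7.25% of all windows, and 4 of the 8 members with a window had it, the fourth being Cxcl10 with matches that begin 159, 104 and 103 bases before the start, the last pair overlapping. TATAAA, present in 12.4% of windows, was found before Cxcl3, Cxcl9 and Cx3cl1. Cxcl10 also held TGANTCA (6.75% of windows) and the interferon response element (2.98%), and Cxcl14 held TTCNNNGAA (7.02%) and that element. Cxcl12 held none of these letters in its window, and Cxcl5 and Cxcl16 have no entry in the table. Matches to letters are a description of the sequence and do not show that a factor binds there.

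In hTNFtg SFs the shares of Cxcl12 and Cxcl14 in the summed counts of the 10 genes lay apart from those in WT SFs. These shares, given below, were not tested. By the rule of the study's methods, which asks for P under 0.05 before adjustment together with a change of 1 or more in size on the log2 scale, Cxcl2, Cxcl5, Cxcl14 and Cxcl16 were raised and Cxcl12 was lowered. This is 4 of 10 members raised where 3.35% of the 28522 genes tested were, and 1 of 10 lowered where 3.04% were, in all 5 of 10 against 6.39%. The same 5 members passed the P limit alone, as did 7.72% of genes. With a mean of at least 10 required, Cxcl2, Cxcl12, Cxcl14 and Cxcl16 passed P and fold, beside 8.68% of genes. Cxcl5 did not pass then, and Cxcl9 and Cxcl10 fell under that mean. By P and fold the count of 5 fell to 3 (Cxcl2, Cxcl14 and Cxcl16) without any 1 WT library or without hTNFtg replicate 2. In those fits 5.02% to 7.27% of all genes passed. The count was 9 with array quality weights and 7 with edgeR on approximate reads, beside 12.4% and 8.45% of all genes. The log2 fold changes of the members had a median of 1.24, with 9 of 10 above 0, beside a median of -0.00 over all genes tested. After adjustment over all genes (limma, Benjamini-Hochberg) only Cxcl14 stayed under 0.05, as did 0.480% of genes.

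**Figure D1:**
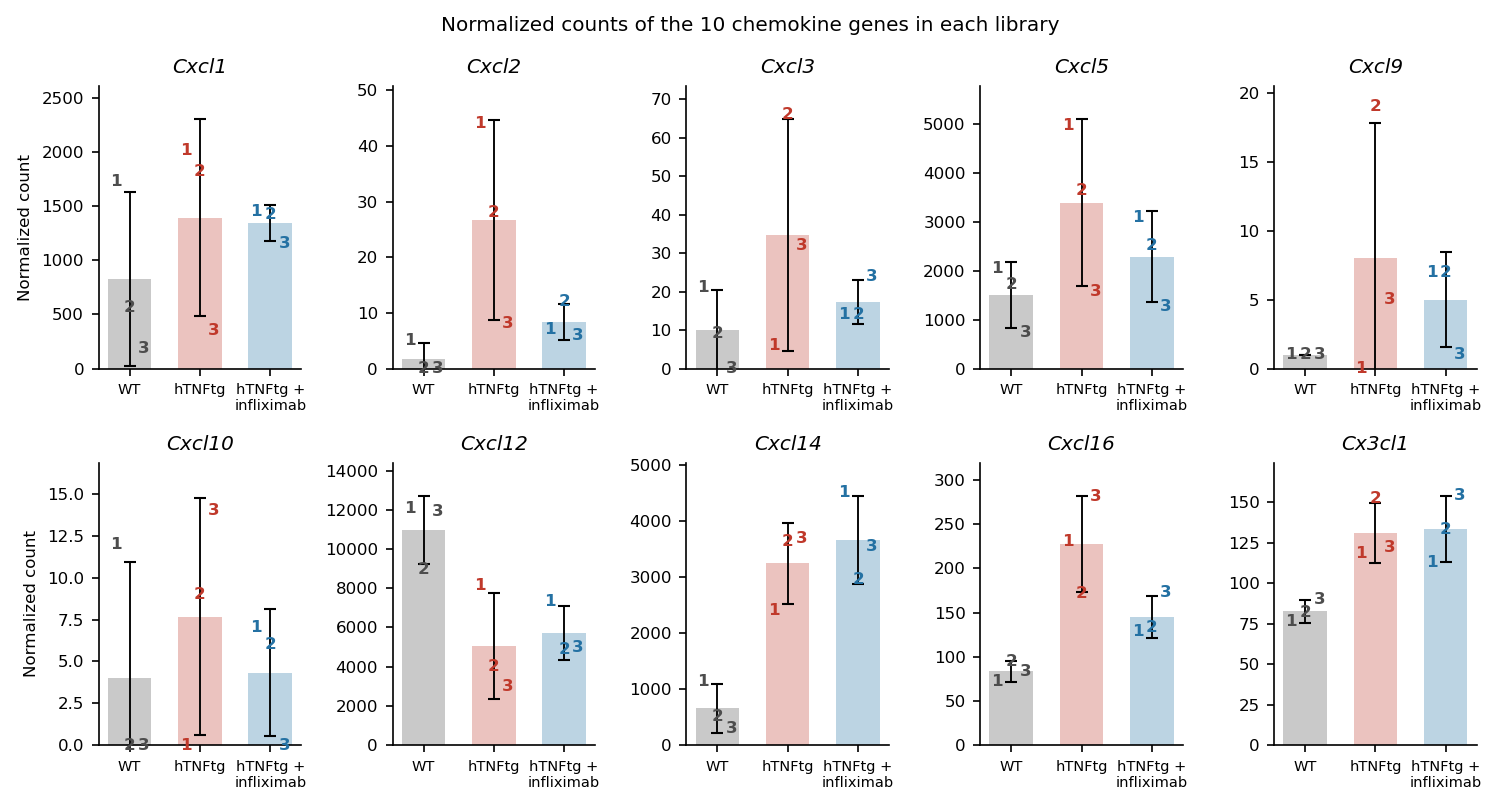
Normalized counts of each member in the 3 groups, with an axis of its own for each gene. Numerals mark the replicate number of each library, bars the group mean and lines the SD (n = 3, cut at 0). Cxcl14 stands at 303 to 1145 in WT and at 2410 or above in the other libraries, and Cxcl12 is highest in WT.

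Cxcl14, which attracts cells of the monocyte and dendritic lineages and lies at chr13:56288647-56296551, reached 1145, 517 and 303 normalized counts in the WT libraries numbered 1 to 3 and 2410, 3640 and 3698 in hTNFtg. The groups did not overlap, and the lowest hTNFtg library stood above the highest WT library. The means were 655 ± 438 (SD, n = 3) and 3249 ± 727 (SD, n = 3). On the scale of log2(normalized count + 1) the difference was 2.50 (standard error 0.46, adjusted p = 0.0438), or 5.65-fold. Leaving out any 1 of the 6 libraries gave 2.05 to 3.01, with the call by P and fold kept and no adjusted p under 0.05. Over all alternatives tried its adjusted p ran from 1.63e-05 to 0.528.

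Cxcl12, also known as SDF-1, which lies at chr6:117168535-117181367, had the highest mean of the 10 in every group. Its normalized count was 12054, 8959 and 11906 in WT and 8128, 4033 and 2995 in hTNFtg. Every hTNFtg library was below every WT library, and hTNFtg replicate 1 was the nearest to them. The mean was 10973 ± 1746 (SD, n = 3) in WT and 5052 ± 2714 (SD, n = 3) in hTNFtg, -1.24 on the log2 scale (standard error 0.52, adjusted p = 0.587). The change fell between -1.65 and -0.93 with 1 library left out, and the call was lost without any of the 3 WT libraries or without hTNFtg replicate 2 or 3.

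Cxcl12 made up 70.2% to 89.5% of the summed normalized counts of the 10 genes in WT and 29.7% to 45.4% in hTNFtg. Over the same libraries Cxcl14 made up 2.28% to 6.67% and 13.5% to 40.7%. Neither share overlapped between the groups, while the sum itself did, at 11943 to 17165 in WT and 9083 to 17912 in hTNFtg. By mean level the order in WT was Cxcl12, Cxcl5, Cxcl1, Cxcl14, Cxcl16, Cx3cl1, Cxcl3, Cxcl10, Cxcl2 and Cxcl9, and among neighbours in it only Cxcl12 and Cxcl5, Cxcl14 and Cxcl16, and Cx3cl1 and Cxcl3 had ranges that did not overlap. In hTNFtg Cxcl14 stood next after Cxcl12 and Cxcl5, its range overlapping theirs and lying above that of Cxcl1. With infliximab Cxcl14 stood second, below Cxcl12 in every library and overlapping with Cxcl5.

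**Figure D2:**
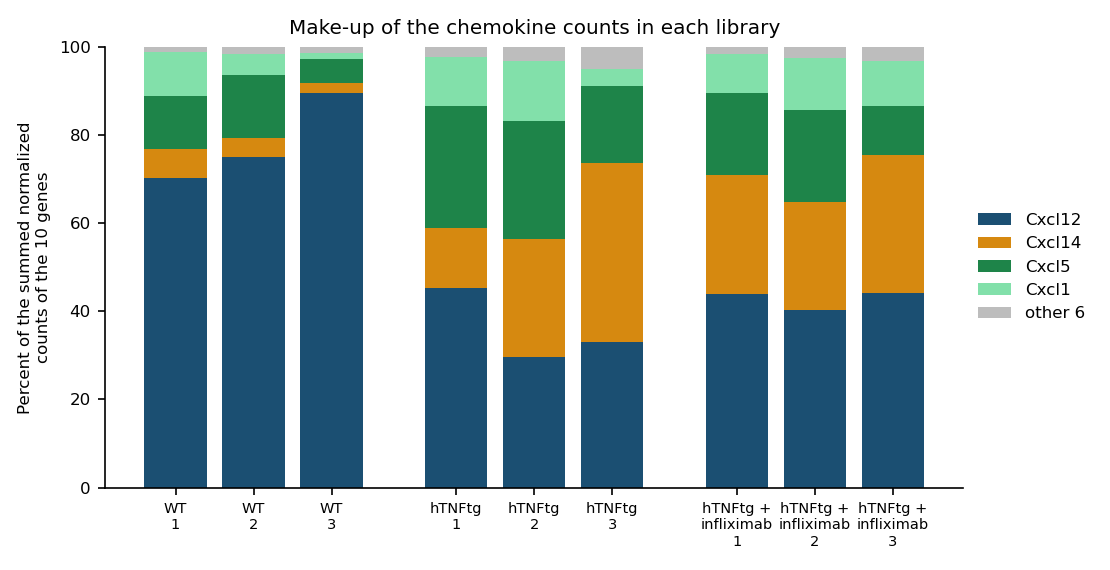
Percent of the summed normalized counts of the 10 genes in each library that came from Cxcl12, Cxcl14, Cxcl5, Cxcl1 and the other 6, one bar per library. The Cxcl12 share is 70.2% or more in WT and 45.4% or less in the other 6 libraries.

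Cxcl16, the membrane-bound ligand of Cxcr6, which lies at chr11:70453983-70459984, was at 72, 95 and 83 in WT and at 230, 172 and 281 in hTNFtg. The ranges were apart, with tight replicates in WT. The means were 83.3 ± 11.5 (SD, n = 3) and 228 ± 54.5 (SD, n = 3), 1.42 apart on the log2 scale (standard error 0.31, adjusted p = 0.0871), and the call was kept in every alternative tried. Med11, a gene on the other strand whose end lies 255 bases from that of Cxcl16, was at 51 to 67 in WT and 75 to 84 in hTNFtg, with a log2 fold change of 0.49 (adjusted p = 0.726). Subtracting the whole of Med11 would leave Cxcl16 at 19 to 32 in WT and 97 to 197 in hTNFtg. Cxcl16 is also a product of macrophages, whose summed markers were also higher in hTNFtg SFs, at 3112 to 6426 against 193 to 661, and their part in the difference was not tested.

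Cx3cl1, the ligand of Cx3cr1, which lies at chr8:94772009-94782427, was at 76, 82 and 90 in WT and at 118, 152 and 122 in hTNFtg. It did not pass the rule although its groups did not overlap. Higher without overlap were 4 of 10 members (Cxcl2, Cxcl14, Cxcl16 and Cx3cl1) and 5.63% of all genes tested, and lower without overlap were Cxcl12 and 5.80%. The difference was 0.65 (standard error 0.30, adjusted p = 0.665), with a 95% interval from -0.01 to 1.31.

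Among the 4 members that draw neutrophils, Cxcl5 and Cxcl2 were raised. Cxcl5, at chr5:90759360-90761624, was at 2053, 1718 and 741 in WT and at 4964, 3635 and 1578 in hTNFtg. The ranges overlapped, since hTNFtg replicate 3 lay below WT replicates 1 and 2. The means of 1504 ± 682 (SD, n = 3) and 3392 ± 1706 (SD, n = 3) differed by 1.15 on the log2 scale (standard error 0.51, adjusted p = 0.635), close to the limits of the rule in both P (0.0466) and fold. The call was lost without any of the 3 WT libraries, without hTNFtg replicate 1 or 2, with a pseudocount of 5 and with a mean of at least 10 required, and leaving out a library gave 0.70 to 1.62.

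Cxcl2, at chr5:90903871-90905938, was listed at 5, 0 and 0 in WT and at 44, 28 and 8 in hTNFtg. All hTNFtg libraries were above all WT libraries, on an estimated 5 reads in the WT group and 55 in the hTNFtg group. The difference of 3.64 (standard error 1.01, adjusted p = 0.210) passed the rule in every alternative, but with so few reads its size depended on the constant added, and the alternatives ran from 2.13 to 4.51. Cxcl2 is another known product of macrophages, and the part of the higher macrophage markers in its rise was not tested.

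Cxcl1, at chr5:90891241-90893115, was at 1726, 562 and 183 in WT and at 2012, 1819 and 350 in hTNFtg, a spread of 9.43-fold within WT and 5.75-fold within hTNFtg. Its difference of 0.95 (standard error 0.79, adjusted p = 0.726) did not exceed that spread. It was 0.14 without WT replicate 3, 0.50 and 0.58 without hTNFtg replicates 1 and 2, and 1.76 without WT replicate 1 or hTNFtg replicate 3, and of these only the value without hTNFtg replicate 3 passed the rule. Cxcl3, at chr5:90786103-90789600, was at 21, 9 and 0 in WT and at 6, 66 and 32 in hTNFtg, where the 6 of replicate 1 amounts to about 1 read. Its difference of 2.05 (standard error 1.17, adjusted p = 0.726) did not pass. Leaving out a library gave 0.75 (without WT replicate 3) to 2.98 (without WT replicate 1). It was 2.96 without the shallow hTNFtg replicate 1 and 1.33 without hTNFtg replicate 2, and none of these passed. The quasi-likelihood test of edgeR, run on approximate reads, gave 1.98 (adjusted p = 0.0223). That threshold was passed by 3.24% of genes in edgeR.

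The interferon-induced pair was scarce throughout. Cxcl9, at chr5:92321347-92328079, was listed at 1 in each WT library and at 0, 19 and 5 in hTNFtg, on an estimated 4 and 31 reads. Its WT level was at or under 3 reads in each library, and the fitted value of 1.30 passed neither P nor the adjusted threshold (adjusted p = 0.726). Without hTNFtg replicate 1, where 0 reads allow up to 18.7 normalized counts, it was 2.45 and passed the rule, and without hTNFtg replicate 2 it was 0.29. Cxcl10, at chr5:92346638-92348889, was at 12, 0 and 0 in WT and at 0, 9 and 14 in hTNFtg, with overlapping ranges and a difference of 1.18 (standard error 1.28, adjusted p = 0.726). Leaving out a library gave Cxcl10 0.43 to 2.41. Both genes passed the rule with array quality weights in limma (2.78 for Cxcl9 and 2.31 for Cxcl10), and Cxcl9 also in edgeR on approximate reads (3.01, adjusted p = 0.111).

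**Figure D3:**
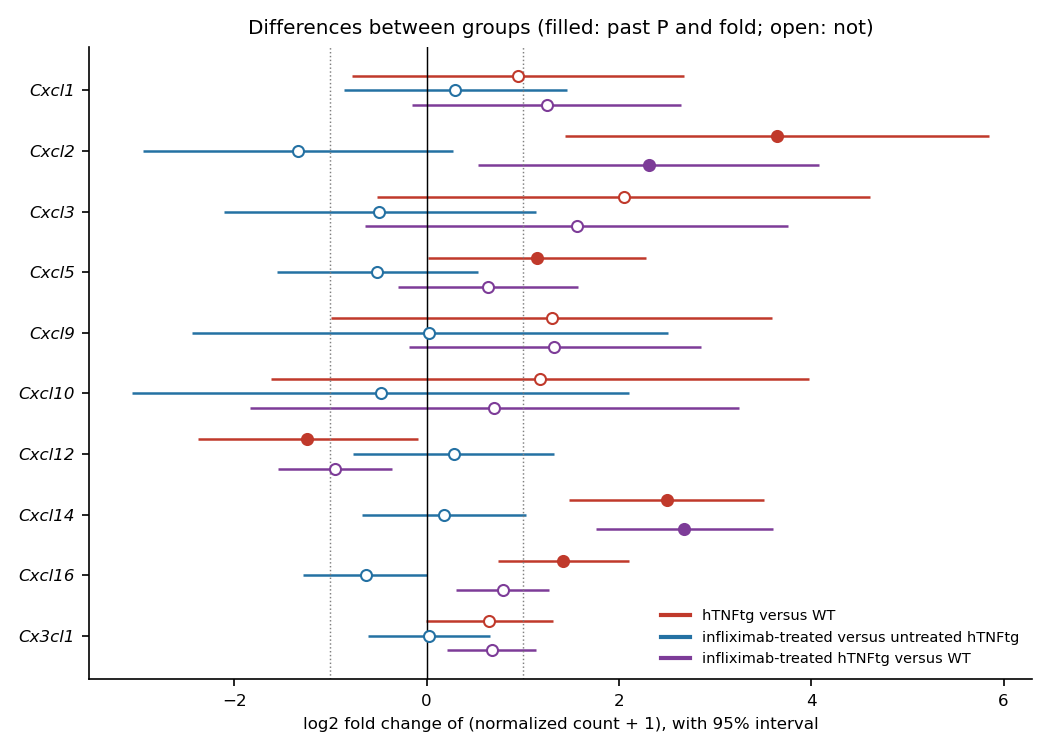
Log2 fold changes of (normalized count + 1) for each member with 95% intervals, for hTNFtg versus WT (red), infliximab-treated versus untreated hTNFtg (blue) and infliximab-treated hTNFtg versus WT (purple). Filled points passed P and fold, dotted lines mark a log2 fold change of 1 in size. All blue points are open, and Cxcl14 lies at 2.50 in red and 2.68 in purple.

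The second comparison asked which of these transcripts moved when TNF was blocked for 48 hours. It shares the untreated hTNFtg libraries with the first, so a chance high or low value there enters both with opposite sign. None of the 10 members passed the rule, where 2.43% of the 28540 genes tested did (1.49% raised and 0.936% lowered), and limma gave an adjusted p under 0.05 to 0 members and to 0 genes of the whole table. By P alone the count was 0 members and 3.59% of genes. No member was apart from the untreated libraries, where 3.99% of genes lay higher and 3.44% lower without overlap. edgeR on approximate reads passed Cxcl2 (-1.48) and Cxcl3 (-1.09) by the rule, beside 4.30% of genes, and gave 0 members an adjusted p under 0.05. The members' median log2 fold change was -0.22, with 5 above and 5 below 0.

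Cxcl16 came nearest in P. It was at 129, 133 and 173 with infliximab against 230, 172 and 281 without, so that the ranges just met at replicate 2 of the untreated and replicate 3 of the treated SFs. The mean with infliximab was 145 ± 24.3 (SD, n = 3), and the difference was -0.63 (standard error 0.30, adjusted p = 0.803), with a 95% interval from -1.28 to 0.01. Each treated library was below the untreated one of the same number, at 0.561, 0.773 and 0.616 of its value. With the replicate block the adjusted p was 0.693, and the value passed the limit in P but not in fold. Summed macrophage markers ran from 2015 to 4112 with infliximab and from 3112 to 6426 without. Of the list C1qb and Itgam were lowered by the rule (2 of 10), beside 0.936% of all genes tested. The count was 0 without hTNFtg replicate 1 and 1 without hTNFtg replicate 3 or infliximab replicate 1 or 2. The part of the macrophage markers in the values of Cxcl16 was not tested.

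Cxcl2 stood at 7, 12 and 6 with infliximab, where the untreated SFs had 44, 28 and 8. Each was below the untreated library of the same number, and the treated range reached past the lowest untreated value. The difference was -1.34 (standard error 0.75, adjusted p = 0.803), and without hTNFtg replicate 3 it was -2.01 and passed the rule. Cxcl3 stood at 14, 14 and 24, inside the untreated range of 6 to 66, with a difference of -0.49 (standard error 0.75, adjusted p = 0.860). Without the shallow hTNFtg replicate 1 it was -1.40 and passed the rule, and without replicate 2 it changed sign to 0.23.

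Cxcl5 was at 3089, 2526 and 1259 with infliximab, and each value was under that of the untreated library with the same replicate number. The mean was 2291 ± 937 (SD, n = 3), and the difference of -0.51 (standard error 0.48, adjusted p = 0.803) lay within the spread of the libraries taken as unpaired. By replicate number the treated value was 0.622, 0.695 and 0.798 of the untreated one. In limma P was 0.310, and 0.0816 with the replicate block (adjusted p = 0.693). Leaving out a library gave -0.99 to -0.13. The value of -0.99, without hTNFtg replicate 3, passed the limit in P (0.0371) but not in fold. Cxcl1 was at 1454, 1425 and 1157, where the untreated SFs ran from 350 to 2012, with a difference of 0.30 (standard error 0.54, adjusted p = 0.889) whose 95% interval was -0.86 to 1.46. The treated libraries were the most alike of the 3 groups for Cxcl1, with a coefficient of variation of 12.2% against 65.2% and 97.6% in untreated hTNFtg and WT, and without hTNFtg replicate 3 the difference turned to -0.52.

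For Cxcl14 and Cxcl12, the members with the smallest adjusted p in hTNFtg SFs and with the highest level, the treated and untreated libraries overlapped. Cxcl14 was at 4510, 2955 and 3550 with infliximab, a mean of 3672 ± 785 (SD, n = 3) and a difference of 0.18 (standard error 0.39, adjusted p = 0.915) with an interval from -0.67 to 1.03. Cxcl12 was at 7304, 4888 and 4995, all within the range of the untreated libraries, a difference of 0.29 (standard error 0.48, adjusted p = 0.876) with an interval from -0.76 to 1.33. Cx3cl1, at 113, 133 and 154, differed by 0.03 (standard error 0.29, adjusted p = 1.00), with an interval from -0.61 to 0.66. Cxcl9 was at 7, 7 and 1 and Cxcl10 at 7, 6 and 0, both inside their untreated ranges.

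In the third comparison, that of infliximab-treated hTNFtg against WT SFs, Cxcl14 and Cxcl2 were raised and no member was lowered. This was 2 of 10 members where 3.86% of the 28243 genes tested were raised and 2.95% lowered, 6.81% in all. The WT libraries are those of the first comparison and the treated ones those of the second, so the values are given side by side and their likeness is not tested. Cxcl14 differed by 2.68 (standard error 0.41, adjusted p = 0.0269), or 6.40-fold, beside 2.50 in untreated hTNFtg SFs. The call held without any 1 library (2.23 to 3.19), although the adjusted p then passed 0.05 in each case. An adjusted p under 0.05 was reached by 0.740% of all genes.

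Cxcl2 differed from WT by 2.31 (standard error 0.79, adjusted p = 0.260) after treatment, beside 3.64 before, again on few reads, and the call was lost without WT replicate 2 or 3 or infliximab replicate 1 or 2 (1.88 to 3.17 over all libraries left out). Cxcl12, Cxcl16 and Cx3cl1 passed the limit in P but not in fold, so that 5 of 10 members passed in P beside 11.9% of genes, and none of these 3 overlapped with WT. Cxcl12 was -0.95 (standard error 0.26, adjusted p = 0.163), Cxcl16 was 0.79 (standard error 0.22, adjusted p = 0.159) and Cx3cl1 was 0.68 (standard error 0.21, adjusted p = 0.207). Cxcl12 passed the rule without WT replicate 2 (-1.09) or infliximab replicate 1 (-1.14), and Cxcl9, at 1.33 in full, without infliximab replicate 3 (adjusted p = 0.276). Higher without overlap were 4 of 10 members and 7.14% of all genes, and lower without overlap were 1 of 10 and 7.07%. For Cxcl1 the difference was 1.25 (standard error 0.62, adjusted p = 0.489), which was 2.06 and passed the rule without WT replicate 1 and was 0.44 without WT replicate 3, and for Cxcl5 it was 0.64 (standard error 0.42, adjusted p = 0.604).

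Cxcl5 and Cxcl1 had the same highest and lowest library in each group, though not the same spread. In WT, untreated and treated SFs the library numbered 3 was the lowest of its group for both genes and the library numbered 1 the highest. From the highest to the lowest library Cxcl5 spanned 2.77-fold in WT, 3.15-fold in hTNFtg and 2.45-fold with infliximab, wider than Cx3cl1 (1.18-, 1.29- and 1.36-fold) or Cxcl16 (1.32-, 1.63- and 1.34-fold). Cxcl1 spanned 9.43-fold in WT and 5.75-fold in hTNFtg but 1.26-fold with infliximab, and Cxcl5 per Cxcl1 ran from 1.09 to 4.51 over the 9 libraries. Pearson's r of Cxcl1 and Cxcl5 over the 9 libraries on the log2 scale was 0.82, a description over libraries that include the 3 groups, and among 8625 genes Cxcl1 ranked 88 in likeness to Cxcl5 and Cxcl5 ranked 267 in likeness to Cxcl1. The labels do not say what the replicate numbers share.

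**Figure D4:**
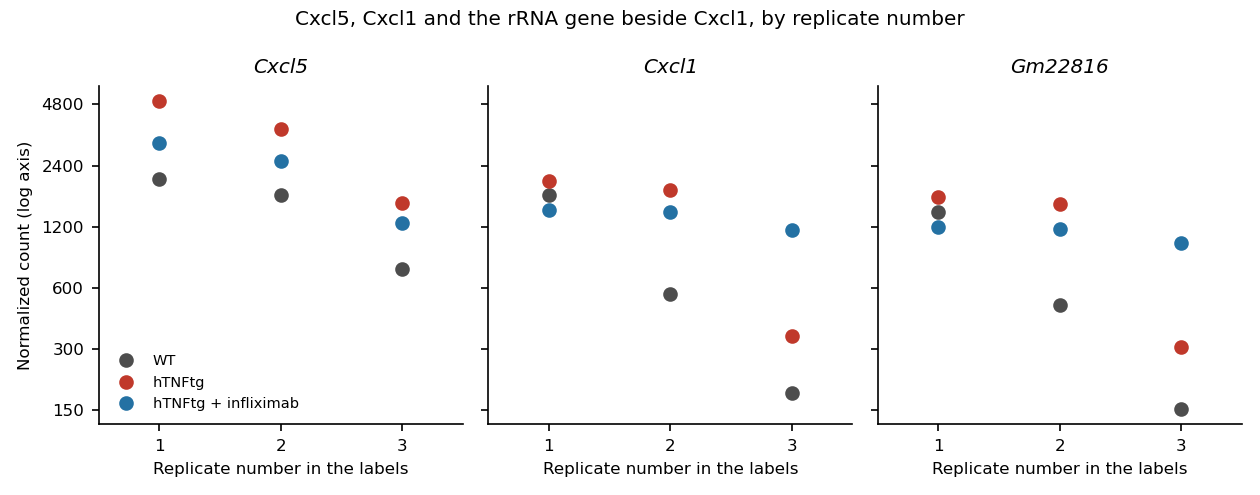
Normalized counts on a log axis of Cxcl5, Cxcl1 and Gm22816, an rRNA gene beside Cxcl1, in each library, placed by replicate number and coloured by group. In all 3 panels the libraries numbered 3 are the lowest of their group.

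The gene most like Cxcl1 over the 9 libraries was Gm22816 (r = 1.00, n = 9), annotated as an rRNA gene of 117 bases that begins 264 bases past the end of Cxcl1 on the same strand. It had between 0.819 and 0.879 times the normalized count of Cxcl1 in every library, so its values and those of Cxcl1 are not read here as independent, and whether reads are shared between them was not tested. Emx2 (0.98) and Gm6166 (0.97) followed. The closest to Cxcl5 were Lasp1 (0.96), Smurf1 (0.95) and Acsl4 (0.95), to Cxcl12 Susd2 (0.97), Klhl22 (0.95) and Gm26771 (0.95), and to Cxcl14 Plec (0.98), Kcnj15 (0.98) and Rnd1 (0.97). The closest to Cxcl16 were Axl (0.98), a receptor tyrosine kinase, RP23-288O12.2 (0.98) and Loxl3 (0.97), and to Cx3cl1 Hbegf (0.95), a growth factor that is also shed from the membrane, Fam198b (0.92) and Sod3 (0.92). These values of r describe likeness over 9 libraries that differ in group and depth, and the other 4 members were too scarce to be ranked.

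Other ligands of the family were read alongside. Of 6 tested in hTNFtg versus WT, 2 were raised and 1 lowered, beside 3.35% and 3.04% of all genes tested. Ppbp, the platelet basic protein next to Cxcl5, was at 45, 17 and 9 in WT and 168, 101 and 31 in hTNFtg (2.02, adjusted p = 0.372), and Pf4, platelet factor 4, at 1, 4 and 0 and 19, 15 and 19 (3.11, adjusted p = 0.214). Cxcl15, also called lungkine, was lowered 4.01-fold from 50, 42 and 27 to 6, 16 and 7 (adjusted p = 0.250) and lies between Cxcl3 and Cxcl1. Only Pf4 was raised without WT replicate 2 or 3 or hTNFtg replicate 2. In the same libraries 8 of 10 macrophage markers were raised, with a median of 2.97, and their part in the values of Ppbp and Pf4 was not tested. None of the 5 tested in infliximab-treated versus untreated hTNFtg SFs passed the rule, and Cxcl11, at 0, 3 and 12 in hTNFtg and 1, 0 and 1 with infliximab, was lowered there without hTNFtg replicate 1. Of 19 genes with a mean of at least 10 and a start within 100 kb of a member's start, 4 passed the rule in hTNFtg versus WT and 0 with infliximab. The 4 were Ppbp, Pf4 and Cxcl15, already counted above, and Arrb2, named after its values were seen. The shares called were 6.39% and 2.43% of all genes tested, and 8.68% and 2.31% where genes were limited to a mean of at least 10 in the 6 libraries compared.

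Of the receptors, 7 could be tested in hTNFtg versus WT and 2 were raised, beside 3.35% of all genes tested. Cx3cr1, the receptor of Cx3cl1 and a gene of monocytes and macrophages, was at 6, 14 and 23 in WT, 149, 80 and 235 in hTNFtg and 231, 89 and 319 with infliximab. Both hTNFtg groups lay above WT, by 3.38 (standard error 0.55, adjusted p = 0.0237) without infliximab and 3.79 (standard error 0.54, adjusted p = 0.0207) with it. Ackr3, a scavenging receptor of Cxcl12 that does not signal through G proteins, was at 70, 26 and 45 in WT, 206, 161 and 107 in hTNFtg and 171, 183 and 97 with infliximab, a rise of 1.79 (standard error 0.42, adjusted p = 0.118) in hTNFtg SFs. With infliximab, 4 of the 8 receptors tested against WT were raised, beside 3.86% of all genes tested, and Cxcr2 and Cxcr4, described here after their values were seen, were the other two. Cxcr2, a receptor of Cxcl1, Cxcl2, Cxcl3 and Cxcl5, was at 38, 23 and 31 in WT, 37, 68 and 42 in hTNFtg and 54, 68 and 70 with infliximab, where it differed from WT by 1.06 (standard error 0.28, adjusted p = 0.151). Cxcr4, the signalling receptor of Cxcl12, was at 0, 13 and 1 in WT, 6, 11 and 17 in hTNFtg and 14, 12 and 13 with infliximab, an overlap with WT and a difference of 2.20 (standard error 0.89, adjusted p = 0.364). The call of Cxcr2 was lost without WT replicate 2 or treated replicate 3, and that of Cxcr4 with any library left out except WT replicate 2. Neither Cx3cr1 nor Ackr3 passed the rule between treated and untreated SFs (0.41 and -0.07), nor did any of the 9 receptors tested there. Without hTNFtg replicate 1 Cxcr6 was lowered and without replicate 3 Ackr1 was, but Cxcr6 was at 0, 6 and 1 in hTNFtg (about 9 reads in all) and Ackr1 at 6, 2 and 0 (about 3 reads), and with infliximab they had 0 and about 1 read. With hTNFtg replicate 3 left out, Cxcr5 was lowered against WT. Bcl9l lies 1398 bases from it on the other strand, at 1.00 to 2.74 times its count, and whether reads of one were counted for the other was not tested. Of the macrophage markers 8 of 10 were raised in hTNFtg SFs as well, and their part in the rise of Cx3cr1 was not tested.

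Among 5 genes for the release and trimming of chemokines, 1 was raised in hTNFtg SFs, beside 3.35% of all genes tested. This was Rhbdf2, which carries the sheddase ADAM17 to the cell surface. It was at 7, 6 and 2 in WT and 19, 31 and 30 in hTNFtg (2.29, adjusted p = 0.272). Without hTNFtg replicate 1 the protease gene Dpp4 passed the rule too, at 0 in WT and 0, 1 and 2 in hTNFtg (about 5 reads in all), where 3 reads were worth 2.57 in replicate 2 and 1.60 in replicate 3. Adam17 itself overlaps Iah1 on the other strand, and the counts of the 2 were nearly equal in each library (ratio 0.981 to 0.998), so that it could not be read alone. Of 8 factors for decay and stability of chemokine mRNA, 1 was raised, again beside 3.35% of all genes, and this was Zc3h12a, which encodes the ribonuclease Regnase-1, from 44, 23 and 23 to 50, 91 and 58 (1.14, adjusted p = 0.495). This call was lost without WT replicate 2 or 3 or hTNFtg replicate 2. Between treated and untreated hTNFtg SFs neither list had a gene past the rule.

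Among the genes for NF-kB subunits and inhibitors, 7 of 11 were raised in hTNFtg SFs and 0 lowered, beside 3.35% and 3.04% of all genes, with a median log2 fold change of 1.18 where that of all genes was -0.00, and 2 had an adjusted p under 0.05. Nfkbia, the inhibitor IkB-alpha and itself an NF-kB target, was at 302, 267 and 319 in WT and 953, 1313 and 1714 in hTNFtg (2.12, adjusted p = 0.0148). Nfkbie, another inhibitor, was at 11, 24 and 14 and 75, 113 and 151 (2.73, adjusted p = 0.0237). Tnfaip3, the ubiquitin-editing brake A20, was at 3, 1 and 0 and 50, 14 and 21 (3.68, adjusted p = 0.124). The others raised were Nfkbiz (2.01, adjusted p = 0.165), Nfkbib (1.97, adjusted p = 0.335), Nfkb1 (1.18, adjusted p = 0.484) and Relb (1.03, adjusted p = 0.464). Without hTNFtg replicate 1 the count was 5. In the same libraries 8 of 10 macrophage markers were raised, with a median of 2.97, and their part in these values was not tested.

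With infliximab 3 of the same 11 were lowered and 0 raised, where 0.936% of all genes were lowered. Nfkbie was at 44, 27 and 48 (-1.47, adjusted p = 0.803), Tnfaip3 at 9, 5 and 11 (-1.52, adjusted p = 0.803) and Nfkbib at 21, 24 and 40 (-1.17, adjusted p = 0.803). The count was 1 without any 1 of the treated libraries, with a pseudocount of 5 and with all 9 libraries in one fit. Nfkbia, at 708, 600 and 859, lay below every untreated library and above every WT library, with a difference of -0.85 (standard error 0.32, adjusted p = 0.803) that passed P but not the fold. C1qb and Itgam of the macrophage markers were lowered in this comparison too, as given above, and their part was not tested.

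**Figure D5:**
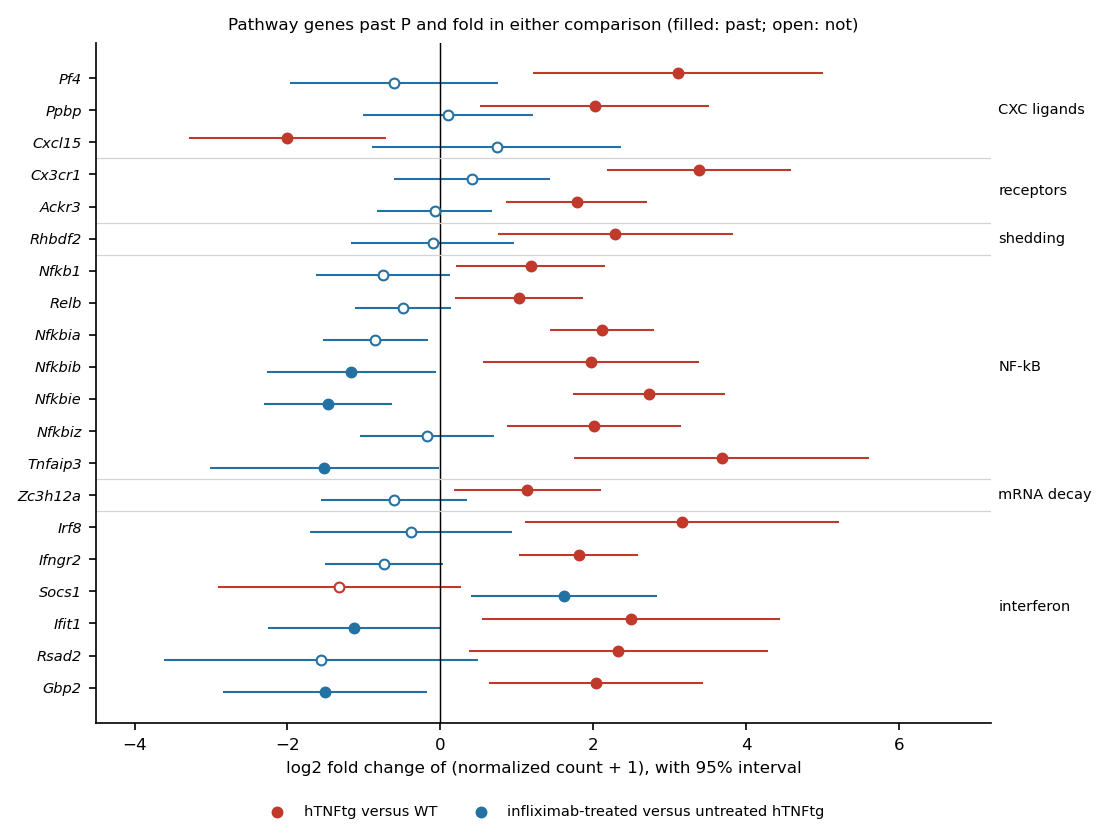
Log2 fold changes of (normalized count + 1) with 95% intervals for the genes of the fixed lists that passed P and fold in either comparison, hTNFtg versus WT in red and infliximab-treated versus untreated hTNFtg in blue. Filled points passed. Of the 7 NF-kB genes raised in red, Nfkbib, Nfkbie and Tnfaip3 are also filled below 0 in blue.

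Of 15 genes of the interferon response, 5 were raised in hTNFtg SFs, beside 3.35% of all genes, and none had an adjusted p under 0.05. They were Irf8 (3.16, adjusted p = 0.254), a transcription factor of myeloid cells, Ifit1 (2.49, adjusted p = 0.410), Rsad2 (2.33, adjusted p = 0.493), Gbp2 (2.04, adjusted p = 0.294) and Ifngr2 (1.81, adjusted p = 0.0560), a chain of the interferon-gamma receptor. The count was 2 without WT replicate 1. With infliximab Gbp2 (-1.51, adjusted p = 0.803) and Ifit1 (-1.13, adjusted p = 0.803) were lowered and Socs1, a brake on interferon signalling, was raised (1.62, adjusted p = 0.803), beside 0.936% of all genes lowered and 1.49% raised. The summed macrophage markers of 193 to 661 in WT, 3112 to 6426 in hTNFtg and 2015 to 4112 with infliximab moved in the same libraries, and their part was not tested. Of the 2 lowered, Gbp2 alone was called without hTNFtg replicate 3 and neither without hTNFtg replicate 1 or infliximab replicate 1 or 2. Socs1 was not called without infliximab replicate 2.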

How the data were processed

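RNA of 9 libraries was sequenced by 3′ mRNA sequencing (QuantSeq on an Ion Proton). According to the study's methods and the submitters' processing notes, the authors aligned reads to mm10 with TopHat2, then the unaligned ones with Bowtie2, counted them per gene with GenomicRanges and normalized with DESeq through metaseqR (versions not given in the sources used here). The deposited values used here are normalized counts rounded to whole numbers, treated as a score and not as raw counts. In 1 column, that of hTNFtg replicate 1, the deposited signal values gave whole reads back for 100% of low values (tolerance 0.1 of a step). The other columns gave the worth of a read only approximately, so reads per library are estimates from the gaps in the rounded values, a method that on simulated data could miss where a read is worth a round value. In the pair of tables, 12 columns scaled to gene models and 12 log2 columns, as well as the authors' own fold changes and P values, were not used.

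The values were joined by gene identifier, 1 was added before log2, and limma 3.58.1 (trended variance, R 4.3.3) was fitted over all genes above 0 in at least 1 library compared, with the 6 libraries of each comparison and Benjamini-Hochberg adjustment over all genes tested. Calls follow the study's methods, with P before adjustment under 0.05 and a change of 1 or more in size on the log2 scale. The scripts were tested on simulated data and run with Python 3.11.15, numpy 2.4.6 and pandas 2.3.3. The members and gene lists were chosen with earlier results of these data known. All members are named, as are genes of the pathway lists (not of the cell type markers) called in either of the first 2 comparisons and, for members with a mean of at least 50, the 3 genes with the highest Pearson r. Motif sequences came from RefSeq promoters, of which 8 members had one.

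Alternatives were pseudocounts of 0.5 and 5, a mean of at least 10, rescaling by median ratios, array quality weights, all 9 libraries in one fit, edgeR 4.0.16 on approximate reads, a replicate block, and each library left out. edgeR gave 923, 165 and 1321 genes with an adjusted p under 0.05 in the 3 comparisons, where limma gave 137, 0 and 209. Libraries with the same number correlated in their deviations between untreated and treated hTNFtg SFs (r = 0.13, 0.29 and 0.36 over 8631 genes). Libraries with different numbers ran from -0.35 to 0.18, so those numbered 1 did not stand apart as a pair. The same numbers were taken as pairs there on these values alone, and the labels do not state a pairing. The replicate block changed no member's call in that comparison. No 2 libraries held identical values. The values of 1 gene of the lists are not reported here.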

Additional observations from a re-analysis of the deposited data

How the results depend on the processing

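Of 413 alternative values of the members' log2 fold changes, 360 kept direction and side of the rule, 20 gained a call, 16 lost one and 17 reversed, all 17 in infliximab-treated versus untreated hTNFtg SFs, where no member had passed. With array quality weights Cxcl1 was -0.24, Cxcl9 -1.43 and Cx3cl1 -0.17, with a pseudocount of 5 Cxcl9 was -0.16 and with edgeR -0.97. With 1 library left out, Cxcl1 ran from -0.52 to 0.74, Cxcl3 from -1.40 to 0.23, Cxcl9 from -1.12 to 1.04, Cxcl10 from -1.68 to 0.49, Cxcl12 from -0.02 to 0.70, Cxcl14 from -0.02 to 0.33 and Cx3cl1 from -0.08 to 0.14. In hTNFtg versus WT the 5 members past P and fold became 9 with array quality weights, which gave hTNFtg replicate 2 a weight of 2.99 and replicate 1 one of 0.298, and 3 to 5 with 1 library left out. The count was 7 with edgeR and 4 with a pseudocount of 5, where 8.45% and 4.74% of all genes passed. With array quality weights 12.4% did. The 1 member with an adjusted p under 0.05 became 0 with a pseudocount of 5, a mean of at least 10 or any 1 library left out (0 to 0), 2 with all 9 libraries in one fit, and 4 with array quality weights or edgeR. That threshold was passed by 0.410% of all genes with a pseudocount of 5 and by 3.24% in edgeR. With infliximab the count past P and fold of 0 became 2 with array quality weights or edgeR (4.30% of all genes in edgeR) and 0 to 1 with a library left out. In infliximab-treated hTNFtg versus WT the count of 2 became 1 with a mean of at least 10, 4 with array quality weights and 1 to 3 with a library left out, and the 1 adjusted p under 0.05 became 2, 4 with edgeR, and 0 to 0. Where no share of all genes stands beside a count under an alternative, the count is not read as a result about the members. The cause of these shifts was not tested. Without hTNFtg replicate 2 or 3 the median of all genes shifted by -0.12 or -0.17 against WT.

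With the replicate block as a term, the members with an adjusted p under 0.05 fell from 1 to 0 in both comparisons with WT, where same-numbered libraries correlated at 0.39, -0.17 and 0.43 for hTNFtg and at 0.12, -0.19 and -0.03 with infliximab and so were not taken as pairs. The list counts under alternatives were chosen after seeing the data. Depth limits Cxcl2, Cxcl3, Cxcl9 and Cxcl10, which had few reads.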
